A study of Mus musculus with 12 samples.

Results

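Motile cilia genes were followed in mouse brain RNA by library and by group. The set held every row of the gene count table whose name begins with Dnah, Rsph or Cfap followed by a digit, together with Foxj1, Tmem212, Ccdc153 and Tekt1, if its counts over the 12 libraries summed to at least 60. All 45 rows that match by name passed that minimum, of 43346 rows in the table. They comprised 4 ependymal marker genes, 16 Dnah rows, 8 Rsph rows and 17 Cfap rows, and every one had counts in every library. The lowest sums belonged to Dnah14 with 163 counts, the antisense RNA Dnah2os with 229 and Rsph6a with 243, while no name match fell below the minimum. Cfap46 occupies 2 rows, which are called the short and the long row below.

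The brain ventricles are lined by ependymal cells, whose tufts of motile cilia move cerebrospinal fluid. A motile cilium is built on an axoneme, a ring of doublet microtubules around a central pair. Dynein arms on the doublets, whose motor subunits are the Dnah heavy chains, make the cilium bend. Radial spokes, which contain the Rsph proteins, connect the ring to the central pair, and Cfap (cilia and flagella associated protein) genes encode many other parts. Multiciliated cells switch these genes on through the transcription factor Foxj1 and factors of the RFX family. Neurons and glia carry a single primary cilium that does not beat.

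The 12 libraries came from brain cross-sections containing hippocampus and cortex, 4 in each of 3 groups, and all carried a wild type genotype label. Young mice were 3 months of age, of strain C57BL/6, without treatment. Old mice were 23 months of age, of strain C57BL/6;SJL-Tg, and had vehicle (0.1% PEG) in their drinking water starting at 9 months. Old_CP2 mice matched them in age, strain and vehicle and were given CP2, a small molecule that weakly inhibits mitochondrial complex I, at 25 mg/kg/day starting at 9 months. Old and Young therefore differ in age, strain label and vehicle at once, and these cannot be told apart. The series' design text speaks of APP/PS1 and non-transgenic animals. All 12 sample titles begin with NTG, read here as non-transgenic, and the wild type labels were followed. Nothing in the labels says that each library is a separate animal, so p-values measure the spread between libraries. Libraries are named by group and number, and values listed per library follow the order 1, 3, 4 and 5 for Young, 7, 8, 9 and 10 for Old, and 11, 12, 13 and 15 for Old_CP2.

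Total counts ran from 70548781 to 99449665 per library. Levels are given as normalised CPM, the count of a gene scaled to library depth. Calls are genes whose adjusted p was under 0.05 in an edgeR quasi-likelihood test over 22553 genes. All 45 rows passed the filter on low counts. Levels were also read for 10 further ependymal markers, none of which was at 0, though these cannot show which cells the 45 rows came from. Their summed level was between 46.4 and 69.1 CPM in Young libraries, between 32.7 and 48.5 CPM in Old ones and between 33.3 and 46.1 CPM in Old_CP2. In bulk tissue, fewer ependymal cells and less RNA per cell cannot be told apart.

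Libraries differed in how much choroid plexus RNA they held. The choroid plexus hangs in the ventricles next to the ependyma, and its epithelium makes transthyretin, the product of Ttr. Ttr was at 1070, 1150, 1760 and 1650 CPM in Young, at 130, 861, 6.81 and 688 CPM in Old, and at 5.08, 738, 686 and 40.6 CPM in Old_CP2. Old 7, Old 9, Old_CP2 11 and Old_CP2 15 were thus the 4 lowest. The summed level of all 18 choroid plexus markers lay between 2220 and 3470 CPM in Young, but between 400 and 1970 CPM in Old and between 347 and 1620 CPM in Old_CP2, and none of the 18 was at 0. Counts of calls against Young, and the genes called there, are also given without those 4 libraries. In that fit, which rests on fewer libraries, 0.771% of 23083 genes were called lower and 1.46% higher in Old against Young.

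Promoters of the cilia genes were searched for 2 short motifs, because the genes varied together between libraries. RefSeq promoter windows on GRCm38.p6, from 250 bases before to 50 after the annotated start, were matched by symbol for 35 of the 44 symbols. Cfap53, Cfap54, Cfap97, Dnah2os, Dnah3, Foxj1, Rsph1, Rsph10b and Rsph4a were not matched. The core of the X-box bound by RFX factors was searched as GTTGCC on both strands, and a forkhead motif, the kind that Foxj1-related factors bind, as TGTTTAC on both strands. The RFX core occurred in 11 of the 35 genes (31.4%), against 12.5% of 32851 windows of that length and 14.1% of all genes with a window. The 11 include Dnah7a, Dnah7b and Dnah7c, near-identical copies whose matches may not be independent. The forkhead motif occurred in 3 of 35 (8.57%), in Cfap20, Cfap43 and Dnah17, against 3.65% of windows and 4.05% of all genes with a window. The RFX core on both strands of a window occurred in 0.533% of windows, and among the cilia genes in Tekt1. A match describes letters in a window, and binding was not measured.

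The sequences that follow were chosen to set promoters of genes with fold changes well below 0 in Old against Young beside those of genes near 0. None of the 7 was called. Each reads 5′ to 3′ in the direction of the gene, and capitals mark the motif. Tekt1 (chr11:72361862-72361927, minus strand) holds GGCAAC and GTTGCC within 1 stretch. The bases after the start of the Tekt1 window were not found in a GENCODE vM21 transcript of Tekt1. Ccdc153 (chr9:44240495-44240560, plus strand), Dnah10 (chr5:124725035-124725100, plus strand), Cfap44 (chr16:44394750-44394815, plus strand) and Cfap43 (chr19:47837380-47837446, minus strand) belong to genes with log2 fold changes between -1.32 and -0.80 in Old against Young. Rsph3b (chr17:6948307-6948370, minus strand) and Dnah17 (chr11:118129384-118129450, minus strand) belong to genes at -0.00 and -0.00.
Tekt1 RFX core: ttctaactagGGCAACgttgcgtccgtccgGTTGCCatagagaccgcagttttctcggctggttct
Ccdc153 RFX core: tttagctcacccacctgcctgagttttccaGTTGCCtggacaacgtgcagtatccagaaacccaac
Dnah10 RFX core: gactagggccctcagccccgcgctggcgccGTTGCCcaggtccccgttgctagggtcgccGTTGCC
Cfap44 RFX core: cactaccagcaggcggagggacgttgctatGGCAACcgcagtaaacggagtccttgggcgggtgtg
Rsph3b RFX core: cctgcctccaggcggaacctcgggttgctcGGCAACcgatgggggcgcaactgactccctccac
Cfap43 forkhead motif: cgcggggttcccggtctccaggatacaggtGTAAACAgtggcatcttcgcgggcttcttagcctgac
Dnah17 forkhead motif: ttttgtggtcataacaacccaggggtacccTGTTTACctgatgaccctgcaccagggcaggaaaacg
The Rsph3b match and the second Dnah10 match lie after the annotated start, and the other matches shown lie before it. The stretches shown were picked by fold change, so they cannot show how the motifs relate to the fold changes, which was not tested. Cfap20, which was called in Old against Young, held both motifs and is not among them.

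Between genes, levels were compared per kilobase of the deposited gene length, as CPM per kb averaged over the 12 libraries. The range was wide, from 28.8 CPM per kb for Cfap36 to 0.0652 for Dnah14. Cfap20 followed Cfap36 at 20.5 CPM per kb, then Rsph9 at 6.98, Cfap97 at 6.85 and Foxj1 at 5.15. Cfap20, Cfap36 and Cfap97 are also transcribed in cells without motile cilia, and they were among the flattest of the set. Ccdc153 followed at 3.58 CPM per kb, Rsph1 at 3.56 and Tmem212 at 2.77. Among the dynein heavy chains the highest were Dnah17 at 1.00 CPM per kb, Dnah1 at 0.88, Dnah9 at 0.82 and Dnah5 at 0.74. The highest library stood 27.1-fold above the lowest for Cfap221, 13.5-fold for Rsph6a, which rests on few reads, 12.2-fold for Tmem212, 8.60-fold for Dnah12, 8.30-fold for Ccdc153 and 8.02-fold for Dnah6. For 22 of the 45 rows that ratio exceeded 3, and for 4, Dnah17 (1.17), Cfap97 (1.23), Rsph3a (1.31) and Cfap20 (1.36), it was under 1.5.

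The genes tended to be high or low together within a library. Relative to each gene's own mean over the 12 libraries, the median log2 level of the 45 rows was 0.69 in Young 3 and 0.54 in Young 4, but 0.18 in Young 5 and 0.04 in Young 1. Young 3 was the highest of all 12 libraries for 27 rows, and Young 1 was the lowest of its group for 28. In Old the median was -0.37, 0.12, -0.43 and -0.03 in libraries 7, 8, 9 and 10, and Old 9 was the lowest of all 12 for 19 rows. In Old_CP2 it was -0.34, -0.09, 0.17 and -0.26 in libraries 11, 12, 13 and 15, and Old_CP2 13 was the highest of its group for 34 rows. The groups thus overlapped, since Old 8 and Old_CP2 13 lay above Young 1. The 4 libraries with the lowest medians were the 4 lowest in Ttr. Choroid plexus markers had a median relative level of 1.07 to 1.57 in Young, of -2.32 in Old 9, -1.01 in Old 7, -1.96 in Old_CP2 11 and -1.68 in Old_CP2 15, and of 0.48 to 0.69 in the other 4 old libraries. Whether choroid plexus content and ependymal RNA varied for the same reason was not tested.

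**Figure D1:**
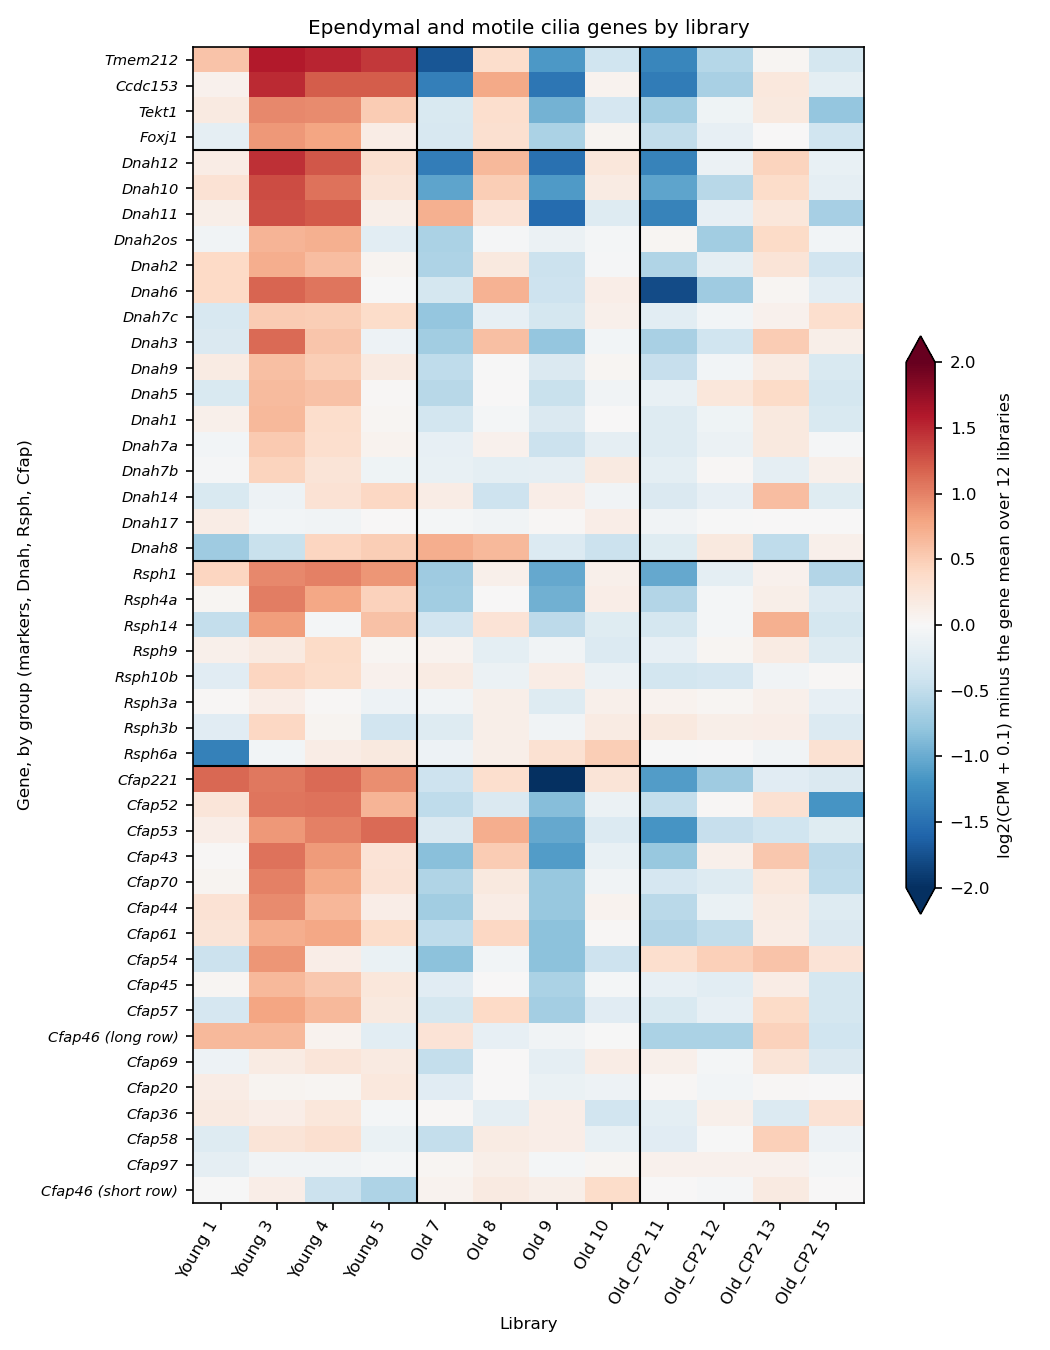
Level of the 45 rows in each of the 12 libraries as log2(CPM + 0.1) minus the mean of that row over the libraries, with genes ordered by group and columns divided into Young, Old and Old_CP2. Young 3 and Young 4 are the highest columns, Old 9 and Old_CP2 11 are among the lowest, and Dnah17, Cfap20 and Cfap97 hardly vary.

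**Figure D2:**
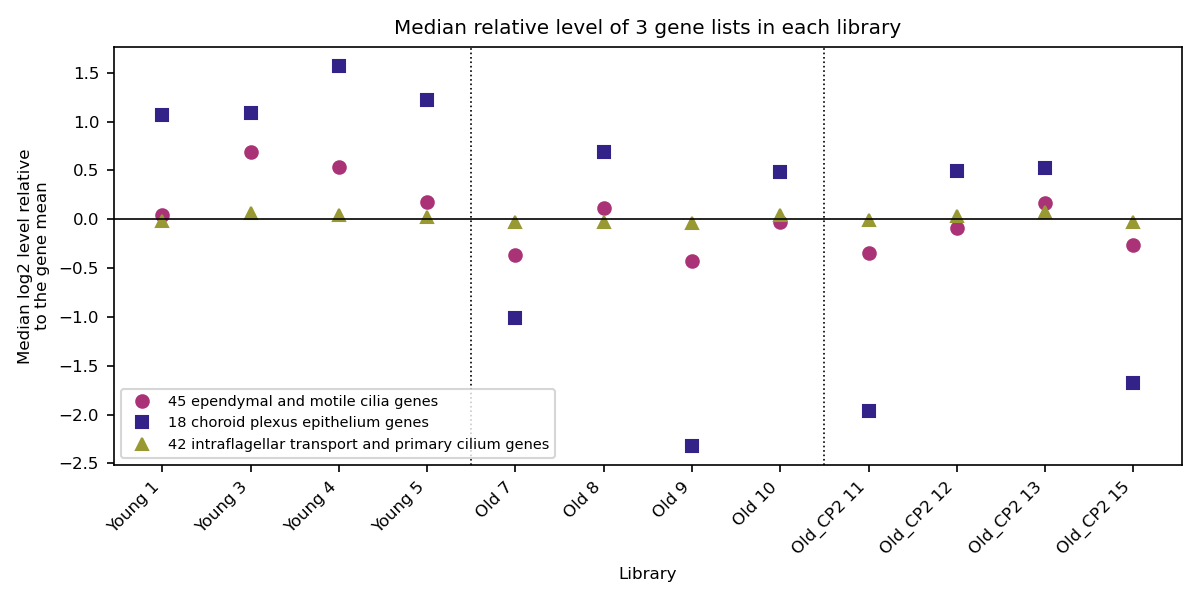
Median log2 level relative to the gene mean, by library, for the 45 motile cilia rows, 18 choroid plexus markers and 42 genes of intraflagellar transport and the primary cilium. The motile cilia and choroid plexus medians are low in the same 4 old libraries (Old 7, Old 9, Old_CP2 11 and Old_CP2 15), while the primary cilium median stays near 0 in all 12.

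Old against Young addresses motile cilia genes in aged brain, as far as the strain label and vehicle allow. Of the 45 rows, 6 fell (13.3%), against 2.74% of all genes tested, and 0 rose, against 3.96%. The 6 were the ependymal marker Tmem212, the outer arm dynein Dnah9, the radial spoke head genes Rsph1 and Rsph4a, and the doublet microtubule genes Cfap52 and Cfap20. The median log2 fold change of the set was -0.58, against -0.0034 over all genes, and 41 of 45 rows lay below 0. At an unadjusted p under 0.05, 25 rows were lower (55.6%; 10.3% of all genes) and 2, Cfap97 and the short row of Cfap46, were higher (11.2% of all genes). The 4 Old values lay entirely below the 4 Young values for 8 rows, Tmem212, Dnah1, Dnah9, Rsph1, Cfap20, Cfap45, Cfap52 and Cfap221, as they did for 6.32% of all genes. Without the 4 libraries lowest in Ttr, 0 rows were called in Old against Young by edgeR, 10 were lower and 2 higher at an unadjusted p under 0.05, 38 of 45 lay below 0 and the median was -0.36. Among all 23083 genes of that fit, 1759 were lower and 2085 higher at the same unadjusted threshold. Without Old 9 alone 0 were called, without Young 3, Young 4 or Old 7 only 1, without Young 5 2, without Old 8 10. DESeq2 called 14, all of them lower, and a fit of the 8 libraries alone called 4. The share of all genes called is not reported here for the single-library, DESeq2 and 8-library fits. Their counts therefore describe how the calls depend on the fit, with no background beside them.

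The 4 ependymal markers had the lowest median of the 4 gene groups, -1.14, with 1 of 4 called. Tmem212, which encodes a membrane protein and marks ependymal cells, was at 2.25, 4.70, 4.47 and 4.15 CPM in Young and at 0.387, 1.93, 0.620 and 1.11 CPM in Old. Every Old library was below every Young library, and Old 7 was the lowest. It fell by 1.94 on the log2 scale (SE 0.421, adjusted p = 0.0173), from 3.89 ± 1.12 CPM (SD, n = 4), a call lost without Old 9 (adjusted p = 0.0506) and without the 4 libraries lowest in Ttr (0.071). Ccdc153, a coiled-coil gene of motile cilia, was at 3.28, 8.85, 7.27 and 7.25 CPM in Young and 1.13, 5.28, 1.07 and 3.23 CPM in Old. Old 8 exceeded Young 1, and the log2 difference of -1.32 (SE 0.489) did not pass the test (adjusted p = 0.131). Tekt1, a tektin filament gene of the doublet microtubules, had 3.06, 5.32, 5.24 and 3.86 CPM in Young against 2.1, 3.41, 1.34 and 2.09 CPM in Old libraries. Here too Old 8 was the single Old library above the lowest Young value, with a log2 difference of -0.96 (adjusted p = 0.0654). Ccdc153 was at -0.65 and Tekt1 at -0.67 without the 4 libraries lowest in Ttr.

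Foxj1, the regulator of the programme, had the smallest difference of the 4 markers. It was at 11.4, 23.4, 22.1 and 14.2 CPM in Young and at 10.2, 16.1, 8.27 and 13.3 CPM in Old. Young 3 and Young 4 were high, and the Old range overlapped Young 1 and Young 5. The log2 difference was -0.57 (SE 0.237, adjusted p = 0.177), and -0.27 without the 4 libraries lowest in Ttr.

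Dynein heavy chains drive the beat, and 15 of the 16 Dnah rows lay below 0 in Old against Young, with a median of -0.56 and 1 called. Dnah9, an outer arm chain, was at 14.3, 19.3, 17.9 and 14.5 CPM in Young and 8.90, 12.6, 10.4 and 13 CPM in Old. The groups did not overlap. Dnah9 fell by 0.55 (SE 0.155, adjusted p = 0.0499), a call that leaving out any 1 of the 8 libraries ended (adjusted p from 0.0503 to 0.131), as did leaving out the 4 libraries lowest in Ttr (-0.36, adjusted p = 0.209). Dnah5, the other main outer arm chain of multiciliated cells, was at 8.98, 17.4, 16.8 and 11.4 CPM in Young and 7.60, 11.3, 8.19 and 10.6 CPM in Old, and the log2 difference was -0.53 (adjusted p = 0.171). Dnah1, an inner arm chain, had 11.9, 17.5, 14.2 and 11.4 CPM in Young and 8.59, 10.8, 9.05 and 11.2 CPM in Old. Its groups did not overlap, yet its log2 difference of -0.47 did not pass (adjusted p = 0.0745). Dnah5 and Dnah1 were both at -0.32 without the 4 libraries lowest in Ttr.

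Inner arm chains that were further from 0 were also more variable. Dnah12 had the lowest fold change of the family, -1.13 (SE 0.505, adjusted p = 0.213), with 2.69 to 6.83 CPM in Young and 0.794 to 3.87 CPM in Old. Dnah10 was at -1.04 (SE 0.402, adjusted p = 0.149). Dnah11, an outer arm chain, was at 3.51, 8.08, 7.70 and 3.50 CPM in Young and 5.34, 3.93, 1.04 and 2.69 CPM in Old, so that Old 7 lay above 2 Young libraries although it was below the gene's own mean for 36 of the 45 rows. Reads of the near-identical copies Dnah7a, Dnah7b and Dnah7c may have been split between them. These were at -0.41, -0.25 and -0.58, and none was called. Dnah7c was at 2.37, 4.26, 4.20 and 3.85 CPM in Young libraries, 1.70, 2.63, 2.31 and 3.18 CPM in Old ones and 2.54, 2.85, 3.16 and 3.76 CPM in those with CP2, all overlapping. Dnah17 and Dnah8, heavy chains best known from sperm, did not follow the others. Dnah17 was at 18.3, 15.9, 15.7 and 16.6 CPM in Young libraries, 16.0, 15.7, 16.8 and 18 CPM in Old ones and 15.6, 16.4, 16.5 and 16.6 CPM in those with CP2, with a log2 difference of -0.00 (SE 0.0631) in Old against Young. Dnah8 was at 0.725, 0.885, 1.71 and 1.80 CPM in Young and 2.1, 2.01, 1.02 and 0.893 CPM in Old, a log2 difference of 0.23 (adjusted p = 0.762). Dnah2os, which overlaps Dnah2 on the other strand over 312 bases (36.3% of its exons), cannot be told from Dnah2 there, since the kit does not mark strand. Exons of other rows of the set also overlap other genes in GENCODE vM21. Among them are Dnah3 (10.5%), Rsph10b (10.5%), Rsph3a (9.89%) and Cfap52 (8.36%), counting the largest overlap of each.

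**Figure D3:**
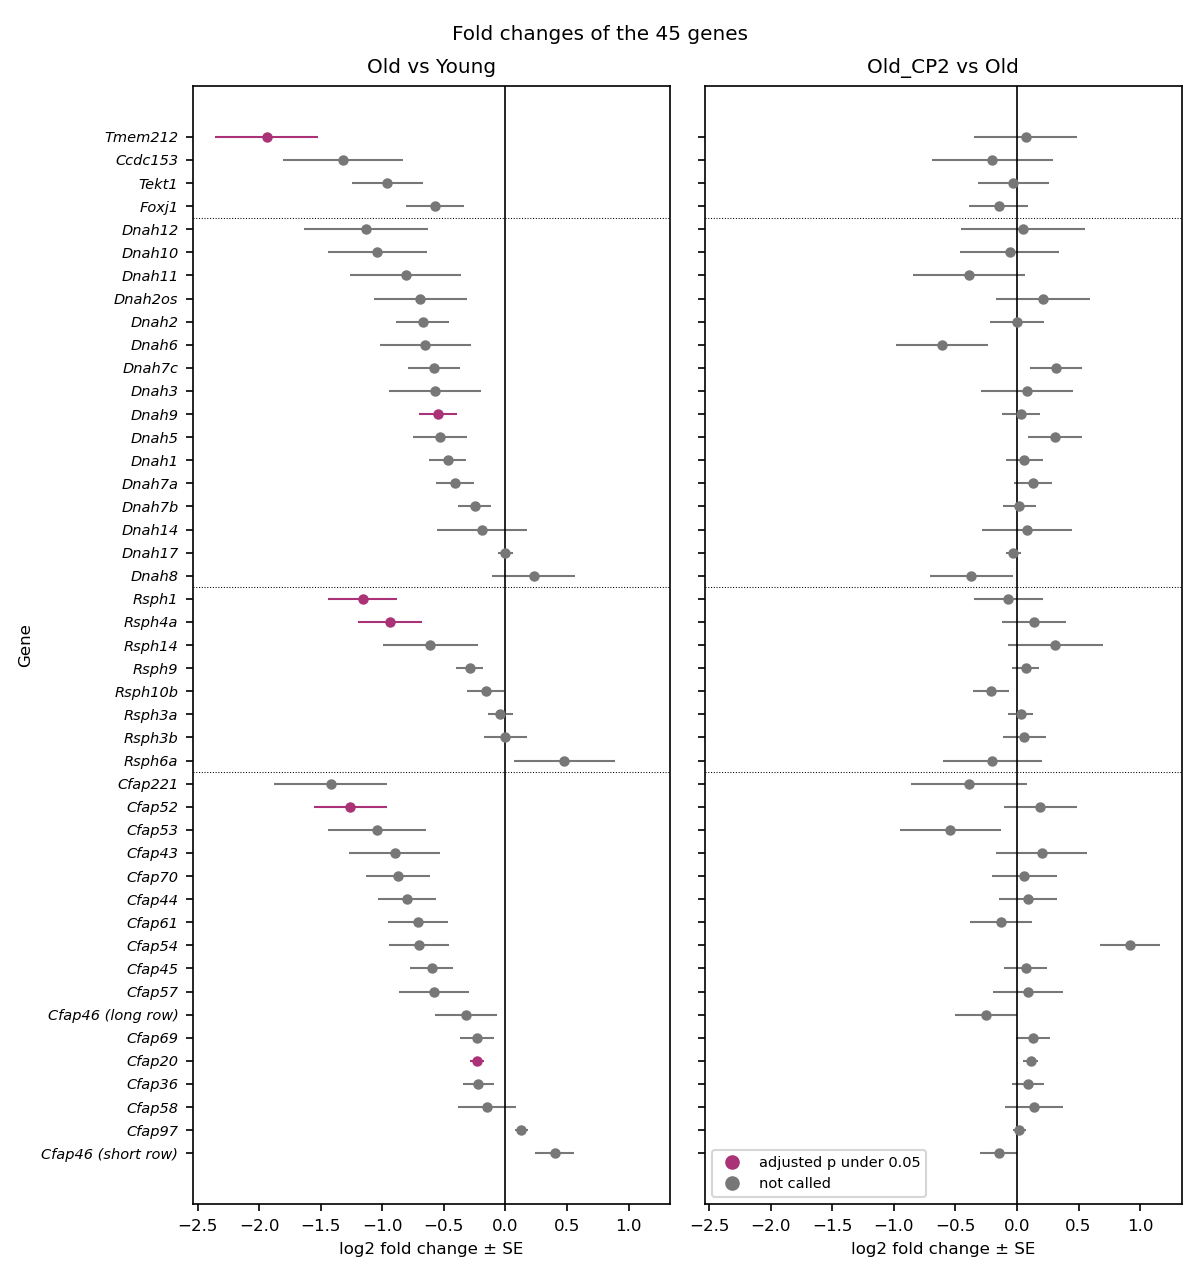
Log2 fold change ± SE from edgeR for each of the 45 rows in Old against Young (left) and Old_CP2 against Old (right), with called genes in purple. On the left 41 of 45 points lie below 0 and 6 are called, and on the right 17 lie below 0, none is called and Cfap54 is the highest at 0.92.

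Among the radial spoke genes, 2 of 8 fell and the median was -0.23. Rsph1, a spoke head gene, was at 4.98, 7.22, 7.50 and 6.84 CPM in Young and at 2.20, 3.96, 1.76 and 3.95 CPM in Old. The groups did not overlap, and Rsph1 fell by 1.16 (SE 0.279, adjusted p = 0.0281). Rsph4a, a second spoke head gene, was at 6.29, 12.6, 10.5 and 8.51 CPM in Young and 3.74, 6.15, 3.10 and 6.75 CPM in Old. Only Old 10 was above the lowest Young library, Young 1, and Rsph4a fell by 0.94 (SE 0.26, adjusted p = 0.0482). Leaving out the 4 libraries lowest in Ttr put Rsph1 at -0.74 (adjusted p = 0.0567) and Rsph4a at -0.55 (0.257). The Rsph1 call also ended without Young 3, Young 4, Young 5, Old 7 or Old 9 (adjusted p up to 0.075 over all alternatives), and the Rsph4a call without any of these or Old 8, and in the fit of the 8 libraries alone (0.0721).

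The other spoke genes were closer to 0. Rsph9, also of the spoke head and the most abundant of the family per length, averaged 12.6 ± 1.33 CPM in Young against 10.2 ± 1.09 in Old (SD, n = 4), with a log2 difference of -0.29 (adjusted p = 0.134). Its values were 11.9, 12.5, 14.4 and 11.4 CPM in Young libraries, 11.6, 9.62, 10.6 and 9.15 CPM in Old ones and 9.87, 11.4, 12.5 and 9.23 CPM in those with CP2, and the groups overlapped. The spoke stalk genes Rsph3a and Rsph3b, near-identical copies whose reads may have been split, were at -0.04 and -0.00. Rsph3a was at 5.10, 5.49, 5.08 and 4.67 CPM in Young libraries, 4.79, 5.47, 4.18 and 5.38 CPM in Old ones and 5.28, 5.14, 5.38 and 4.49 CPM in those with CP2. Rsph10b was at -0.16 and Rsph14 at -0.61 (SE 0.386). Rsph6a, the sperm counterpart of Rsph4a, was at 0.48 (SE 0.408) and rested on few reads, 2 in Young 1 and 17 to 33 in each other library.

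Cfap genes showed the widest spread, from -1.42 to 0.40 with a median of -0.60, and 2 of 17 fell. Cfap52, which encodes a protein inside the doublet microtubules, was at 2.61, 4.76, 4.80 and 3.57 CPM in Young and 1.53, 1.79, 1.18 and 2.03 CPM in Old. No Old library reached the lowest Young value. Cfap52 fell by 1.26 (SE 0.295, adjusted p = 0.0248), with the call lost without Young 3, Young 4, Old 7 or Old 9 and without the 4 libraries lowest in Ttr (-1.03, adjusted p = 0.0638). Cfap20, another doublet gene that is active in many cell types, was at 29.2, 27.4, 27.1 and 30.5 CPM in Young and 22.5, 26.6, 24.2 and 24.5 CPM in Old. It fell by 0.23 (SE 0.0582, adjusted p = 0.0362), the smallest change of the 6, in 4 of 4 libraries. That call ended without any 1 of the 8 libraries other than Old 8 (adjusted p from 0.0527 to 0.109), without the 4 libraries lowest in Ttr (-0.16, adjusted p = 0.288), with no filter on low counts (0.0511) and in the fit of the 8 libraries alone (0.0727).

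Cfap221, a gene of the central pair, had the lowest fold change of the family at -1.42 but was not called (SE 0.461, adjusted p = 0.0854). It was at 1.35, 1.25, 1.33 and 1.14 CPM in Young and 0.387, 0.721, 0.0496 and 0.680 CPM in Old, where the value of Old 9 stood for 4 reads. Its Young libraries agreed closely and included no high Young 3, unlike most of the set. Cfap43 and Cfap44, which tether inner arm dyneins to the doublets, were at -0.90 (adjusted p = 0.175) and -0.80 (0.0633). Cfap45 was at -0.60 (0.0559), Cfap61 at -0.71 (0.11), Cfap70 at -0.87 (0.0655) and Cfap53 at -1.04 (0.142). Cfap54, another central pair gene, was at 9.05, 22.7, 13.5 and 11.2 CPM in Young and 6.93, 11.8, 6.88 and 9.16 CPM in Old, a log2 difference of -0.70 (adjusted p = 0.108).

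The abundant Cfap genes lay closer to 0. Cfap36 averaged 85.7 ± 6.80 CPM in Young against 73.6 ± 11.6 in Old (SD, n = 4), a log2 difference of -0.22 (adjusted p = 0.356). Its values were 88.9, 85.9, 91.9 and 76.2 CPM in Young libraries, 79.4, 69.0, 86.2 and 59.9 CPM in Old ones and 68.7, 83.7, 64.5 and 95.8 CPM in those with CP2, so each group overlapped the others. Cfap69, of the central pair, was at 13.8, 16.5, 17.4 and 16.7 CPM in Young libraries, 10.5, 14.9, 13 and 16.3 CPM in Old ones and 15.9, 14.4, 17.7 and 12 CPM in those with CP2. The groups overlapped, and the log2 difference in Old against Young was -0.23 (adjusted p = 0.361). Cfap97 was the single row with every Old library above every Young library, at 31.0, 33.5, 33.7 and 34.2 CPM in Young and 36.1, 38.2, 34.4 and 36.1 CPM in Old, and its log2 difference of 0.13 was not called (adjusted p = 0.16). That is 2.22% of the rows, while 1566 of all 22553 genes lay entirely higher in Old.

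The 2 rows of Cfap46 differed in sign. The short row covers chr7:139600951-139616329 and the long row chr7:139638778-139683817 of mm10, and the GENCODE vM21 annotation joins both spans in 1 gene, chr7:139600951-139683817. The short row was at 0.40 in Old against Young (adjusted p = 0.154), with 2.73, 3.03, 2.02 and 1.76 CPM in Young and 2.87, 3.13, 2.99 and 3.59 CPM in Old. The long row was at -0.32 (adjusted p = 0.524). The difference between the rows was not tested.

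**Figure D4:**
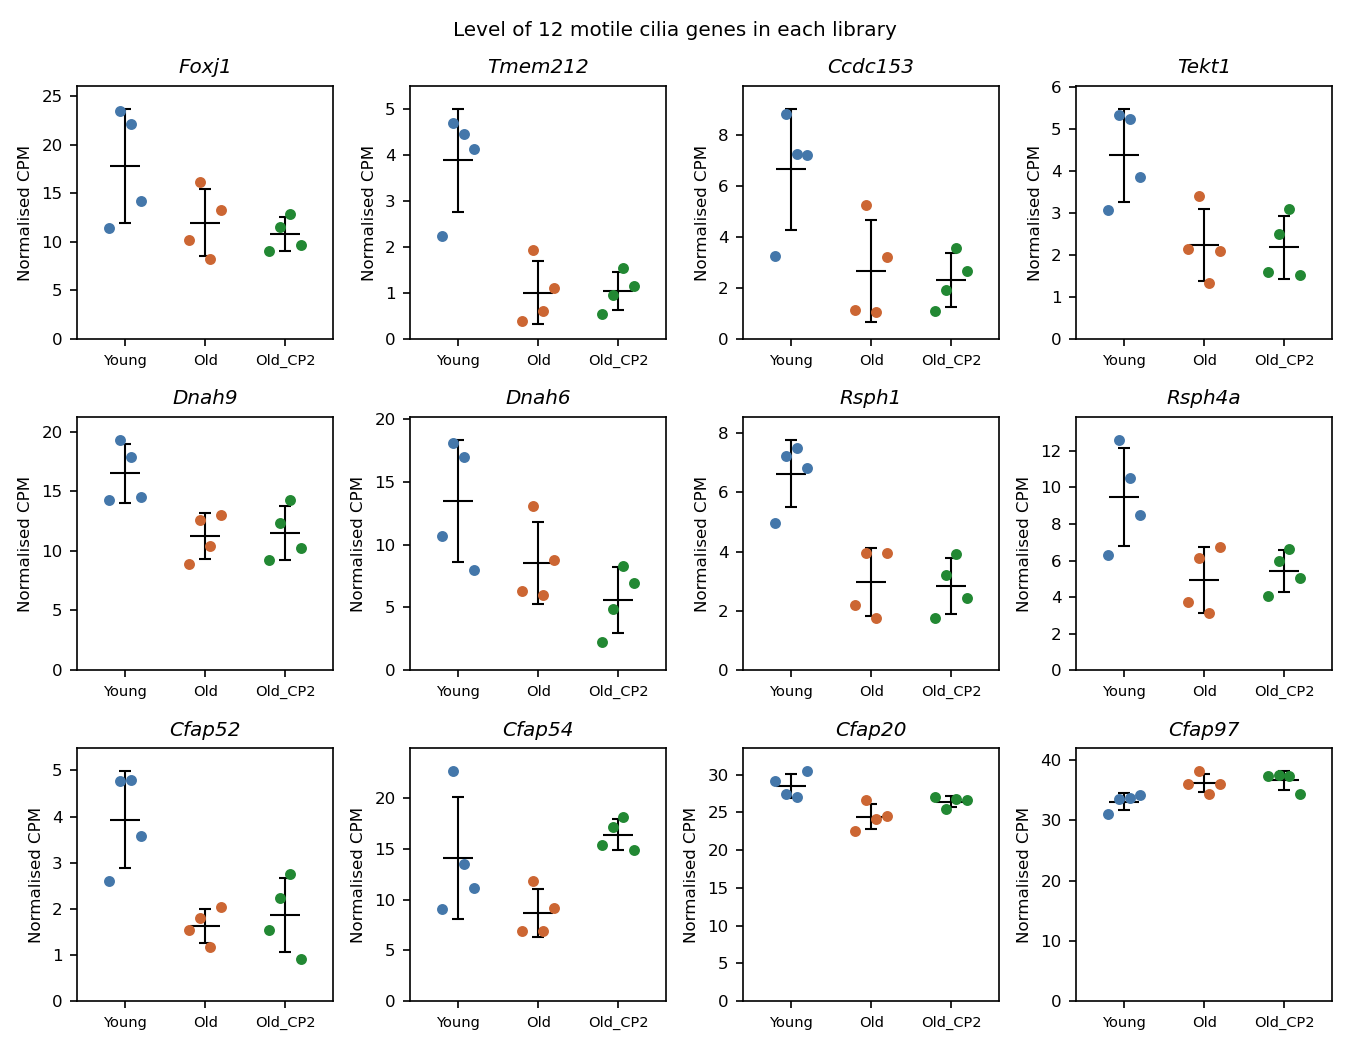
Normalised CPM of 12 of the genes in each library, with the mean and SD of each group of 4 as bars and a linear axis from 0 in each panel. Old and Old_CP2 overlap and lie below most Young libraries for Tmem212, Rsph1 and Rsph4a, while Cfap54 is lower in Old (6.88 to 11.8 CPM) than in Old_CP2 (14.9 to 18.2 CPM) and Cfap97 and Cfap20 vary little.

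CP2 against vehicle at the same age was the treatment comparison. Of the 45 rows, 0 were called in Old_CP2 against Old by edgeR, as were 0.0443% of all genes, and 0 by DESeq2 or by limma voom. At an unadjusted p under 0.05 there was 1 row (2.22%), against 6.31% of all genes, and the same row was the single 1 without overlap between groups, against 3.44% of all genes. The median log2 fold change of the set was 0.06, against 0.00166 over all genes, with 17 rows below 0. The medians were -0.09 for the markers, 0.04 for Dnah, 0.05 for Rsph and 0.09 for Cfap. Leaving out single libraries moved the median of the set from -0.09 to 0.14.

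That row was Cfap54. It was at 15.4, 17.2, 18.2 and 14.9 CPM in Old_CP2, against 6.93, 11.8, 6.88 and 9.16 CPM in Old. All 4 treated libraries were higher than all 4 vehicle libraries, and they also lay within the range of Young. The log2 difference was 0.92 (SE 0.244), with an unadjusted edgeR p of 0.00225 and an adjusted p of 0.376, so it was not called, and the adjusted p lay between 0.158 and 0.812 over 15 alternatives. Old_CP2 11 and Old_CP2 15, which lay below the gene's own mean for 37 and 34 of the 45 rows, did not for Cfap54.

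The 6 genes that fell in Old against Young overlapped between the old groups. Tmem212 was at 0.541, 0.968, 1.54 and 1.15 CPM in Old_CP2, with a log2 difference from Old of 0.07 (SE 0.421). Rsph1 was at 1.76, 3.20, 3.93 and 2.42 CPM (-0.07, SE 0.28), and Rsph4a was at 4.03, 5.98, 6.63 and 5.04 CPM (0.14, SE 0.26). Dnah9 was at 0.03 (SE 0.155), Cfap52 at 0.19 (SE 0.295) and Cfap20 at 0.11 (SE 0.0582). Foxj1 was at 9.04, 11.5, 12.9 and 9.72 CPM in Old_CP2, with a log2 difference from Old of -0.15 (SE 0.237, adjusted p = 0.933).

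Among rows with a mean of at least 1 CPM, Dnah6, Dnah11 and Dnah8 were the lowest, and Dnah7c and Dnah5 the highest after Cfap54. Dnah6, an inner arm chain, was at 10.7, 18.1, 17.0 and 8.01 CPM in Young, 6.29, 13.1, 6.00 and 8.80 CPM in Old and 2.26, 4.89, 8.32 and 6.95 CPM in Old_CP2. Old_CP2 11 was the lowest of the 12 libraries, and the groups overlapped (log2 difference from Old -0.61, SE 0.371, adjusted p = 0.829). Dnah7c was at 0.32 (adjusted p = 0.838) and Dnah5 at 0.31 (0.855). Dnah11 was at -0.39 (0.911) and Dnah8 at -0.37 (0.89). Of rows with a mean under 1 CPM, Cfap53 was at -0.54 (0.867), Cfap221 at -0.39 (0.913) and Rsph14 at 0.31 (0.914).

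Old_CP2 was also compared with Young, a contrast that shares its Young libraries with the first comparison and its treated libraries with the second. Of the 45 rows, 5 fell (11.1%), against 2.94% of all genes, and 0 rose, against 1045 of 22553 genes. The 5 were Tmem212, Rsph1, Cfap52, Cfap53 and Cfap221, with a median of -0.48 over the set, against -0.00757 over all genes, and 40 rows below 0. At an unadjusted p under 0.05, 22 were lower (10.9% of all genes) and Cfap97 was higher (12.3% of all genes). For 6 rows every Old_CP2 library was below every Young library (7.07% of all genes), namely Tmem212, Rsph1, Cfap20, Cfap53, Cfap61 and Cfap221. Without the 4 libraries lowest in Ttr, 3 rows fell (Tmem212, Rsph1 and Cfap221), which is 6.67% against 1.04% of all genes, and the median was -0.31. The count was 0 without Old_CP2 11, 1 without Old_CP2 12 or Young 4, 2 without Young 3, 3 without Young 5 and 10 without Old_CP2 13, and DESeq2 called 13, limma voom 9 and a fit of the 8 libraries alone 8. For these fits too the share of all genes called is not reported here.

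Tmem212 fell by 1.87 (SE 0.418, adjusted p = 0.0181) and Rsph1 by 1.23 (SE 0.279, adjusted p = 0.02) in Old_CP2 against Young. Cfap221 was at 0.198, 0.295, 0.455 and 0.434 CPM in Old_CP2, below 1.14 to 1.35 CPM in Young, and fell by 1.81 (SE 0.466, adjusted p = 0.0332). Cfap53, which helps attach dynein arms, was at 0.479, 0.863, 0.971 and 1.06 CPM in Young, 0.332, 0.779, 0.161 and 0.340 CPM in Old and 0.135, 0.285, 0.304 and 0.347 CPM in Old_CP2. No Old_CP2 library reached the Young range, and Cfap53 fell by 1.58 (SE 0.404, adjusted p = 0.0318), whereas Old 8 lay within that range. Cfap52 fell by 1.07 (SE 0.291, adjusted p = 0.0422; 0.0601 in the fit of the 8 libraries alone) with overlapping groups, since Old_CP2 13 at 2.75 CPM exceeded Young 1. Among the calls of this comparison, leaving out a single library ended that of Tmem212 in 2 of 8 cases (Old_CP2 11 or 12), of Rsph1 in 2 (Young 4 or Old_CP2 11), and of Cfap52, Cfap53 and Cfap221 in 6 each. Without the 4 libraries lowest in Ttr, Tmem212 was at -1.61 (adjusted p = 0.0366), Rsph1 at -0.89 (0.0273), Cfap221 at -1.69 (0.00632), Cfap53 at -1.44 (0.0804) and Cfap52 at -0.65 (0.164).

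Other genes of the motile axoneme were counted from lists that leave out the 45 rows. Over all genes tested, 2.74% fell and 3.96% rose in Old against Young. Of 21 other dynein arm subunits, docking and assembly factors tested, 3 fell in Old against Young and 0 rose (median -0.33). Dnali1, an inner arm light chain, fell by 1.34 (adjusted p = 0.0209), and the outer arm docking genes Ccdc114 and Ttc25 fell by 0.92 (0.0268) and 0.55 (0.0378). Of 42 other axonemal structure genes, 6 fell and 1 rose (median -0.57). Lrriq1 fell by 0.83 (adjusted p = 0.0143), and Tekt5, a tektin best known from sperm, rose by 0.61 (0.00401), from 7.82 ± 0.581 CPM in Young to 12 ± 0.98 in Old (SD, n = 4). Of the 10 further ependymal markers 3 fell, Mia by 1.46 (adjusted p = 0.0171), Meig1 by 1.14 (0.0166) and 1110017D15Rik by 0.77 (0.0397), with a list median of -1.01. Without the 4 libraries lowest in Ttr, edgeR called 0 genes lower in these 3 lists, with medians of -0.23, -0.34 and -0.58, and 4, 11 and 5 of their genes were lower at an unadjusted p under 0.05, while 1 axonemal gene was called higher. Among all 23083 genes of that fit, 1759 were lower at the same unadjusted threshold.

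Regulators and genes of intraflagellar transport and the primary cilium stood nearer to 0. Of 15 regulators of multiciliated cells tested 0 were called in Old against Young by edgeR, and 6 had an unadjusted p under 0.05, 4 lower and 2 higher (median -0.02), against 10.3% and 11.2% of all genes. Trp73 and Myb, which act upstream of Foxj1 or beside it, were at -0.83 (adjusted p = 0.0851) and -1.0 (0.0854), and Rfx2 was at -0.53 (0.0933). In Old_CP2 against Young Trp73 fell by 1.08 (adjusted p = 0.0293). Of 42 genes of intraflagellar transport and the primary cilium, Rpgrip1l fell by 0.17 (adjusted p = 0.0444) and Cc2d2a rose by 0.18 (0.0244), and the median was -0.05. Over all genes tested, 2.74% fell and 3.96% rose. Neither of these lists held a call without the 4 libraries lowest in Ttr, with medians of -0.02 and -0.05. The summed level of these 42 was 1520 to 1590 CPM in Young and 1500 to 1590 CPM in Old. In Old_CP2 against Old, edgeR called 0 genes of these 5 lists, against 0.0443% of all genes. At an unadjusted edgeR p under 0.05 there were 2 of 21 in the dynein list, 1 of 42 axonemal and 1 of 42 primary cilium genes, all higher. Among all 22553 genes, 689 were higher and 733 lower at that threshold.

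Markers of neighbouring tissue also differed between Old and Young, where 2.74% of all genes tested fell and 3.96% rose. Of 18 choroid plexus markers 1 fell, Slc4a2 by 0.36 (adjusted p = 0.0276), with a list median of -1.38, and Kcnj13 and Prlr were at -1.45 (0.132) and -1.37 (0.176). Of 11 striatal neuron markers 9 fell (median -0.91), among them Penk by 1.31 (adjusted p = 0.00211) and Ppp1r1b by 0.86 (0.00379), and the list's summed level was 348 to 576 CPM in Young and 232 to 291 in Old. Of 10 thalamus and habenula markers 4 fell (median -0.54), including Lef1 by 0.91 (0.0116), Synpo2 by 1.60 (0.0254) and Rora by 0.62 (0.028), with sums of 585 to 891 CPM in Young and 324 to 514 in Old. Of 11 meningeal fibroblast markers 4 rose (median 0.92), with Dcn at 1.34 (0.00352), Lum at 0.76 (0.032) and Aldh1a2 at 1.28 (0.0346), and sums of 323 to 839 CPM in Young and 733 to 1090 in Old. Against 3.96% of all genes, astrocyte markers rose for 6 of 12 (median 0.28), with Gfap at 0.81 (0.00491), Gjb6 at 0.32 (0.00585) and Fgfr3 at 0.30 (0.00641), and sums of 4440 to 5070 CPM in Young and 5850 to 6240 in Old. Of 7 tanycyte markers, which line the floor of the third ventricle without motile tufts, Crym rose by 0.59 (adjusted p = 0.00681), while Scn7a was at -0.61 (0.078) and Lhx2 at 0.24 (0.164). The tanycyte list had a median of -0.13, although its sum, to which Crym contributed most, was 140 to 163 CPM in Young and 172 to 187 in Old. Without the 4 libraries lowest in Ttr, edgeR called 7 choroid plexus, 3 striatal, 0 thalamic and 0 tanycyte markers lower, and 8 astrocyte, 1 meningeal and 0 tanycyte markers higher. No marker in these lists was at 0, and the part of section content in the cilia gene differences was not tested.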

How the data were processed

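RNA was sequenced as paired reads of 101 bases, per the series' design text, and per the labels' protocols libraries were made with a kit that does not mark strand. Per the submitters' processing notes, bcl2fastq, TopHat, featureCounts (Subread) and the mm10 build were used. Tool versions, annotation release and strand setting are not given in the sources used here. Per the file headers, the authors deposited a gene count and an RPKM value per library. The deposited RPKM values served as a check only (79.9 to 85.4% of the value recomputed from counts). Per the file headers the table also gives a gene length.

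The count model was edgeR 4.0.16 under R 4.3.3 (filterByExpr, TMM, quasi-likelihood F test, two-sided, all 12 libraries, group as the only term), with Benjamini-Hochberg adjustment over 22553 genes. Every adjusted p is from this fit unless DESeq2 1.42.0 or limma 3.58.1 (voom) is named. The script was tested on simulated data. Log2 fold changes use a prior count of 2, and their SE comes from the F statistic. Library totals lay between 77469073 and 91549618 counts for Young, between 70548781 and 94741585 for Old, and between 78021395 and 99449665 for Old_CP2. No 2 libraries of a group agreed within sampling noise.

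The members and gene lists were chosen with earlier results of these data known, so lists are described by counts and medians with no test. Values by library were given in full in Young and Old for the 4 markers, the 4 Dnah, Rsph and Cfap rows highest per kilobase, every called row, and the 3 largest rises and falls per comparison among rows with a mean of at least 1 CPM. For some of these rows they were also given in full in Old_CP2. Up to 3 genes per list were named by smallest p in Old against Young, some of which are not reported here, and further rows were named after their values were seen. Alternatives were other scaling factors, DESeq2, limma voom, no filter, the 8 libraries of the groups compared, each library left out, and, added after the data were seen, leaving out the 4 libraries lowest in Ttr.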

Additional observations from a re-analysis of the deposited data

Results flagged for a closer look

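Over 135 groups of 4 values (45 rows in 3 groups), 5 held a library far from the other 3, where the gap to the nearest value divided by the range exceeded the 95% critical value of Dixon's test for 4 samples. Chance flags about 1 in 20 such groups. Old_CP2 13 stood apart for 3 rows. For Dnah14 it was at 0.282 CPM against 0.104 to 0.122 CPM in the other treated libraries (ratio 0.898). For the long row of Cfap46 it was at 6.31 against 2.89 to 3.45 CPM (0.838), and for the short row at 3.13 against 2.71 to 2.76 CPM (0.885). Old_CP2 15 was low for Cfap97, at 34.3 against 37.3 to 37.5 CPM (0.939). Old 10 was high for Dnah7b, at 7.01 against 5.37 to 5.56 CPM (0.883).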

How the results depend on the processing

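The number of motile cilia rows called in Old against Young, 6, became 14 with DESeq2, 4 in a fit of the 8 libraries alone and 0 without the 4 libraries lowest in Ttr, and ran from 0 to 10 when single libraries were left out. In Old_CP2 against Young, 5 became 13 with DESeq2, 9 with limma voom, 8 in a fit of the 8 libraries alone and 3 without the 4 libraries lowest in Ttr, and ran from 0 to 10 when single libraries were left out. In Old_CP2 against Old it was 0 under every alternative run. Shares of all genes called under these alternatives are not reported here, except without the 4 libraries lowest in Ttr. Medians over the 45 rows kept their sign in both comparisons with Young, from -0.74 to -0.40 for Old and from -0.67 to -0.30 for Old_CP2 when single libraries were left out, while in Old_CP2 against Old the median went from -0.09 to 0.14. Among 1125 values of single named genes under an alternative, 975 kept direction and call, 65 lost a call, 28 gained one and 57 of genes that were not called changed sign, and 0 called genes reversed. The causes were not tested. No paired analysis was possible because the groups share no replicate numbers. The lowest counts limit Rsph6a, Dnah14 and Dnah2os most.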
